A study of Mus musculus with 4 samples.

Results

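The 10 genes described here encode receptor chains through which macrophages sense interleukin-4, interleukin-13, interleukin-10, interferons and tumour necrosis factor (TNF). They were taken by gene symbol from a table of 21523 Ensembl gene identifiers, and all 10 were present: Il13ra1, Il4ra, Il10ra, Il10rb, Ifngr1, Ifngr2, Ifnar1, Ifnar2, Tnfrsf1a and Tnfrsf1b. The set was chosen by symbol but selected on the FPKM differences between 1,5-AG and control libraries that an earlier analysis of these data had given, so the differences of its members between groups are given as a description and support nothing further. RAW264.7 is a mouse macrophage-like cell line that came from a virus-induced leukaemia, and all 4 libraries came from it. The treatment label of 2 control libraries reads none, and the cells of the other 2 had received 1,5-anhydroglucitol (1,5-AG), at 0.5 mM and during 24 h. This compound is a natural polyol that resembles glucose without the hydroxyl group on its first carbon. All cells were grown in DMEM with serum and antibiotics, and the labels give a duration for the treated cells alone. The samples are 1 established line, and nothing in the labels says whether replicates were separate cultures, so the spread between them may be technical.

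The interleukin and interferon receptors described here are assembled from pairs of different chains. The first usually binds the ligand, while the other completes the signalling complex. The chains carry Janus kinases (JAKs) on their cytoplasmic tails, which phosphorylate STAT transcription factors once the ligand has brought the chains together. TNF receptors belong to a different family, act as trimers and recruit adaptor proteins in place of JAKs, leading to NF-kB activation or cell death. In macrophages interleukin-4 and interleukin-13 promote alternative activation through STAT6, interleukin-10 restrains inflammation through STAT3, and interferons act through further STAT factors.

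Levels are in FPKM, fragments per kb of exon scaled to the fragments of the library, and can be compared between genes. The depth recovered from FPKM and exon length was between 14616556 and 16228673 fragments per library. All 10 macrophage marker genes checked, among them Cd68, Csf1r and Adgre1, had a mean of at least 1 FPKM. Their summed level was 5855 to 6034 FPKM in control and 4397 to 4521 FPKM with 1,5-AG, most of it from Lyz2, a lysozyme gene. Of these 10 genes only Lyz2 passed the test over all genes described below, which 1.46% of all tested genes passed. Of the markers of other cell types, Lck and Ighm exceeded a mean of 1 FPKM. The 4 B cell markers listed in the table summed to 49.3 to 53.8 FPKM in control and 38.1 to 39.8 FPKM with 1,5-AG, nearly all from Ighm, while Ms4a1 is not listed in the table. The part of these shifts in the results below was not tested. In bulk RNA, fewer cells of a type and less RNA per cell cannot be told apart.

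Il13ra1 and Tnfrsf1b fell with 1,5-AG, by 39.9% and 35.2% of the control mean, while the means of the chains for interleukin-10 and for the interferons differed from control by no more than 0.10 on the log2 scale. Differences were tested with limma on log2(FPKM + 1) over the 11120 genes with a mean of at least 1 FPKM, at an adjusted p of 0.05. Of the 10 receptor genes 9 entered the test, and Il4ra was below the filter. Of those 9, 2 were called lower and 0 higher, where 0.647% of all tested genes were called lower and 0.809% higher, 1.46% in either direction. At an unadjusted p under 0.05, 3 were lower and 0 higher, the third being Tnfrsf1a, where 9.04% of all tested genes were lower and 9.15% higher. Voom, limma's method for counts, run on the recovered fragments, called 3 lower and 0 higher of the 9, where it called 4.64% of its 11056 genes lower and 3.65% higher. The median over the 9 was -0.08, beside -0.0025 over all tested genes. The 1,5-AG libraries lay below both control libraries in 5 of the 9, above them in 0 and overlapped them in 4, where 25.4% of all tested genes lay wholly below and 49.6% were separate in either direction. As the genes were chosen with this contrast known, nothing is read from these counts. Both calls were lost when any 1 of the 4 libraries was left out, control replicate 1, control replicate 2, 1,5-AG replicate 1 or 1,5-AG replicate 2, with 0 of 9 called in each case and 3 at an unadjusted p under 0.05. They were also lost without a filter on low levels and without the variance trend in limma.

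**Figure D1:**
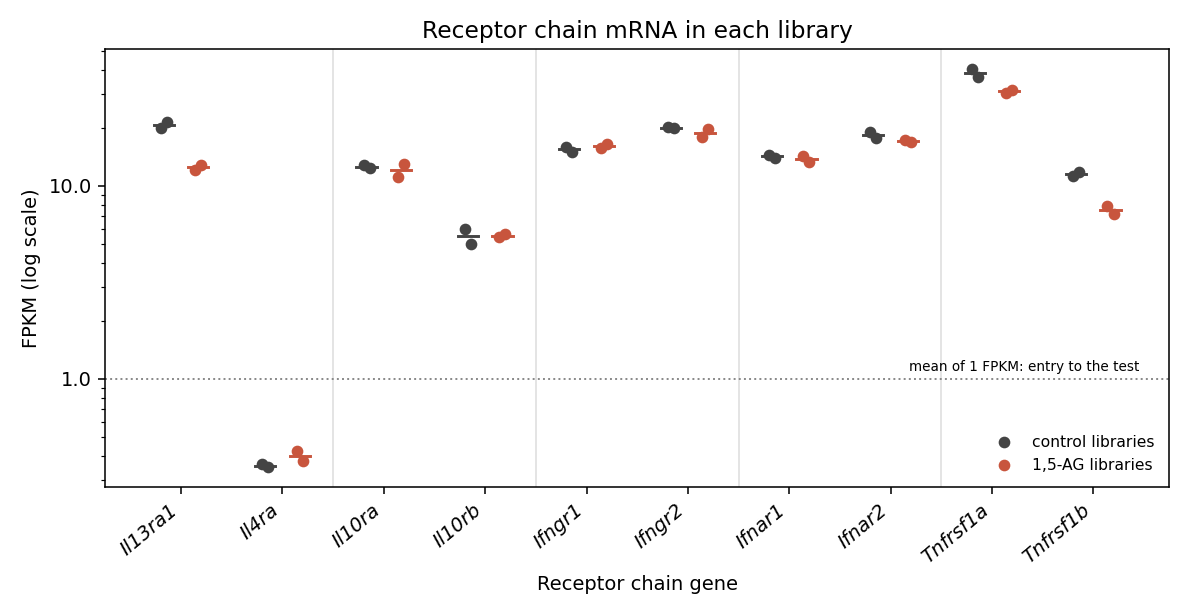
FPKM of the 10 receptor chain genes (log axis) in each control library (dark points) and each 1,5-AG library (red points), with bars at the group means and thin vertical lines between receptors. Il13ra1, Tnfrsf1a and Tnfrsf1b sit lower with 1,5-AG, though Tnfrsf1a did not pass the test over all genes. Il4ra lies below the dotted line at 1 FPKM.

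In control cells the receptor genes spanned a 108-fold range of mean FPKM. Tnfrsf1a was the most abundant at 38.3 FPKM, followed by Il13ra1 at 20.8, Ifngr2 at 20.0, Ifnar2 at 18.4, Ifngr1 at 15.5, Ifnar1 at 14.2, Il10ra at 12.6, Tnfrsf1b at 11.6, Il10rb at 5.48 and Il4ra at 0.356 FPKM. Among neighbours in this order, the libraries of Il13ra1 and Ifngr2 overlapped, and those of the other neighbours did not. With 1,5-AG the order was the same except for Il13ra1, which moved from rank 2 to rank 6 and there overlapped Il10ra. Among protein coding genes with any signal in control, Tnfrsf1a stood at percentile 90.4, Il10rb at percentile 49.3 and Il4ra at percentile 22.1. Leaving out Il4ra, each gene had between 301 and 1579 fragments per library.

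Il13ra1 encodes the chain that binds interleukin-13 and joins the interleukin-4 receptor alpha chain to form the type II receptor. It lies on the X chromosome (36112110 to 36171259, plus strand, mm10) and has 3.712 kb of merged exon. Its level was 20.1 and 21.5 FPKM in the control libraries and 12.2 and 12.8 FPKM with 1,5-AG, from 1130, 1294, 660 and 719 fragments in that order. The groups were 7.26 FPKM apart at their closest, against a distance of at most 1.41 FPKM between replicates. The log2 fold change was -0.69 (SE 0.06, 95% interval -0.84 to -0.55), and the group means were 20.8 ± 0.994 and 12.5 ± 0.461 FPKM (SD, n = 2 libraries per group).

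Il4ra encodes the partner chain, which binds interleukin-4 and carries the docking sites for STAT6. It lies on chromosome 7 (125552120 to 125579474, plus strand). Its level was 0.363 and 0.349 FPKM in control and 0.422 and 0.375 FPKM with 1,5-AG. Its low level rests on few reads, with 33, 34, 37 and 34 fragments over 6.002 kb of exon. Pooled over libraries, the ratio of 1,5-AG to control was 1.12, with an exact (Clopper-Pearson) 95% interval of 0.790 to 1.59 that covers counting error only. A difference of that size was not detectable at this depth. The antisense gene Gm44876 covers 9.51% of the Il4ra exon bases and is not listed in the table, and no source used here states how strand was treated in counting.

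Per unit of exon length Il13ra1 was thus 55.4 and 61.5 times as abundant as Il4ra in the control libraries, and 28.8 and 34.2 times with 1,5-AG. Other chains of the same ligands were looked at after their values were seen. Il2rg, the common gamma chain that pairs with the interleukin-4 receptor alpha chain in the type I receptor, had 8.95 and 10.5 FPKM in control and 10.9 and 8.76 FPKM with 1,5-AG, so its groups overlapped. Il13ra2, the decoy receptor of interleukin-13, had 0.0289 to 0.189 FPKM over the 4 libraries.

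Tnfrsf1b encodes TNF receptor 2, which lacks a death domain and signals through TRAF2. It lies on chromosome 4 (145213463 to 145246870, minus strand) and has 3.818 kb of exon. Its level was 11.3 and 11.9 FPKM in control and 7.87 and 7.12 FPKM with 1,5-AG, from 652, 736, 439 and 411 fragments. Both 1,5-AG libraries were below both controls, with a gap of 3.40 FPKM against at most 0.744 FPKM between replicates. The log2 fold change was -0.57 (SE 0.07, 95% interval -0.74 to -0.40).

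Tnfrsf1a encodes TNF receptor 1, the death domain receptor through which soluble TNF mostly acts. It lies on chromosome 6 (125349362 to 125362484, plus strand). Its level was 40.2 and 36.5 FPKM in control and 30.3 and 31.5 FPKM with 1,5-AG, from 1579, 1534, 1149 and 1235 fragments. The groups did not overlap, and their closest libraries were 4.94 FPKM apart, against 3.71 FPKM between the control libraries. The log2 fold change of -0.30 (SE 0.06, 95% interval -0.45 to -0.15) did not pass the test over all genes, but it did when the filter was raised to 5 FPKM and with voom on the recovered fragments. The ratio of Tnfrsf1a to Tnfrsf1b was 3.57 and 3.07 in control and 3.86 and 4.43 with 1,5-AG, higher in both 1,5-AG libraries than in either control.

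**Figure D2:**
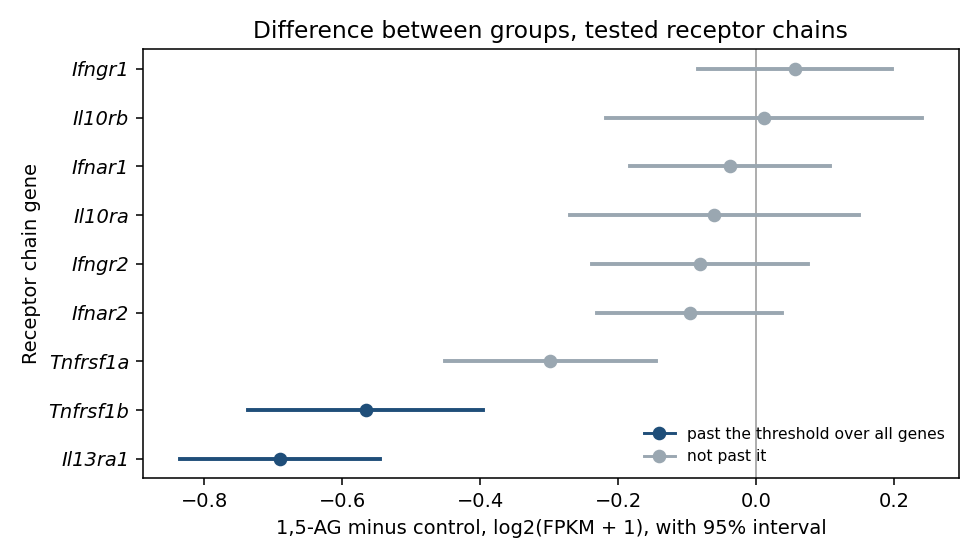
Difference between 1,5-AG and control on the log2(FPKM + 1) scale for the 9 receptor chain genes that entered the test, with 95% intervals from limma. Il13ra1 (-0.69) and Tnfrsf1b (-0.57) are past the threshold over all genes (dark), Tnfrsf1a (-0.30) is not, and the intervals of the other 6 include 0.

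Il10ra encodes the chain that binds interleukin-10 and is largely restricted to blood cells. On chromosome 9 (45253837 to 45269149, minus strand), it had 12.8 and 12.3 FPKM in control and 11.1 and 12.995 FPKM with 1,5-AG. The 1,5-AG libraries lay on either side of the controls, and the difference was -0.06 (95% interval -0.27 to 0.15). Il10rb, the second chain of that receptor, is also used by interleukin-22 and the lambda interferons. On chromosome 16 (91406164 to 91425834, plus strand), it had 5.96 and 5.00 FPKM in control and 5.41 and 5.61 FPKM with 1,5-AG, the latter between the controls (difference 0.01, 95% interval -0.22 to 0.24). Il10ra was 2.16 and 2.47 times as abundant as Il10rb in control and 2.05 and 2.32 times with 1,5-AG.

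Ifngr1 encodes the ligand-binding chain of the interferon gamma receptor. On chromosome 10 (19591949 to 19610229, plus strand), it had 16.01 and 14.9 FPKM in control and 15.8 and 16.4 FPKM with 1,5-AG, with overlapping groups (difference 0.06, 95% interval -0.08 to 0.20). Ifngr2, the chain that brings in JAK2, lies on chromosome 16 (91547072 to 91565623, plus strand). It had 20.1 and 19.9 FPKM in control and 17.9 and 19.8 FPKM with 1,5-AG. Both 1,5-AG libraries were below the controls, the nearer one by 0.0446 FPKM (difference -0.08, 95% interval -0.24 to 0.07). The ratio of Ifngr1 to Ifngr2 was 0.796 and 0.752 in control and 0.884 and 0.829 with 1,5-AG, so Ifngr2 was the more abundant chain in every library.

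Ifnar2 encodes the chain that binds type I interferons most tightly and carries JAK1, and Ifnar1 the chain that carries TYK2. Ifnar2 (chromosome 16, 91372783 to 91405589, plus strand) had 19.0 and 17.8 FPKM in control and 17.3 and 16.9 FPKM with 1,5-AG. Its groups were 0.445 FPKM apart, less than the distance of 1.25 FPKM between the controls (difference -0.10, 95% interval -0.23 to 0.04). Ifnar1 (chromosome 16, 91485238 to 91507441, plus strand) had 14.5 and 13.9 FPKM in control and 14.4 and 13.3 FPKM with 1,5-AG, with overlapping groups (difference -0.04, 95% interval -0.18 to 0.11). The ratio of Ifnar1 to Ifnar2 was 0.764 and 0.785 in control and 0.828 and 0.788 with 1,5-AG. Ifnar2 also produces mRNA for a soluble receptor, which values per gene do not separate.

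**Figure D3:**
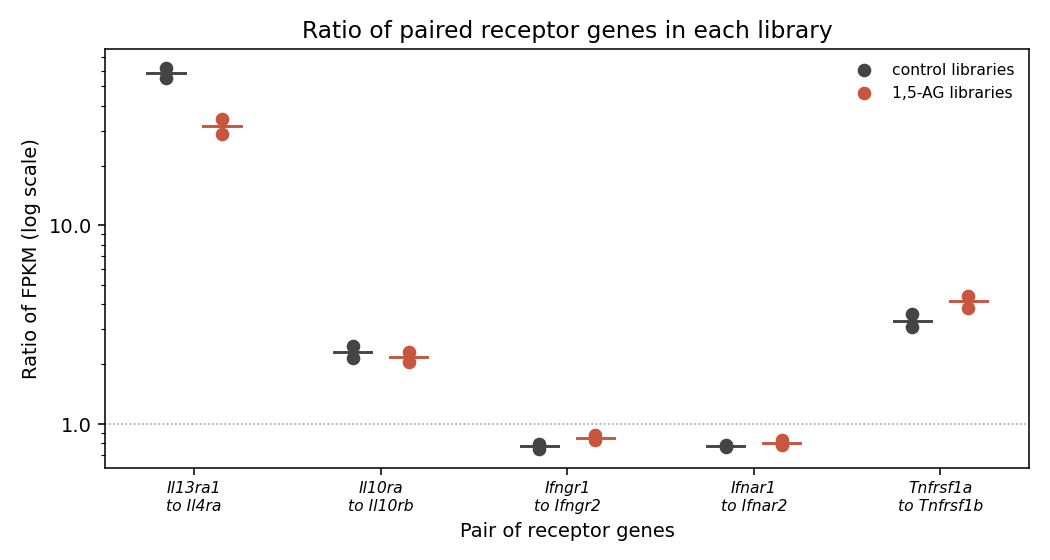
Ratio of FPKM between paired receptor genes (log axis) in each control library (dark) and each 1,5-AG library (red), with bars at the group means and a dotted line at equal levels. The ratio of Il13ra1 to Il4ra goes from 55.4 and 61.5 to 28.8 and 34.2, and both interferon receptors stay below 1 in all libraries.

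Among the 95% intervals of the interleukin-10 and interferon receptor chains, the lowest lower bound was -0.27, for Il10ra, and the highest upper bound 0.24, for Il10rb. Replicates of a gene were set beside counting error. In 16 of 20 comparisons of 2 replicates, the exact 95% counting interval of their ratio included 1, which does not exclude further spread. The exceptions were Tnfrsf1a (ratio of replicate 2 to replicate 1 of 0.908) and Il10rb (0.839) in control, and Il10ra (1.17) and Ifngr2 (1.11) with 1,5-AG.

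Of the 10 genes, 4 lie side by side on chromosome 16 over 193 kb, in the order Ifnar2, Il10rb, Ifnar1 and Ifngr2, all on the plus strand. Of these 4, 0 passed the test in either direction, 0 had an unadjusted limma p under 0.05 and 0 were called by voom. Their differences ran from -0.10 for Ifnar2 to 0.01 for Il10rb. The annotation places Gm21970, a protein coding gene that is not listed in the table, across Ifnar2 and Il10rb on the same strand. It shares 9.46% of the exon bases of Ifnar2 and 14.9% of those of Il10rb, so fragments there may have been assigned or dropped differently and these 2 values are uncertain. The nearest tested genes before the cluster were Paxbp1 (0.03) and the pseudogene H3f3a-ps2 (-0.09). Those after it were Tmem50b (0.07) and Gart (0.12), a purine synthesis gene, and none of these 4 neighbours passed limma's test (adjusted p from 0.270 to 0.789).

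Promoter sequence was looked at as a feature that the choice of genes had not used. RefSeq promoters on GRCm38.p6, from 250 bases before to 50 bases after the start of transcription, were found for 8 of the 10 genes. The 2 that fell are shown with Ifngr2, a receptor gene that was not called and whose window held the most matches. Shown 5′ to 3′ are the 250 bases before the start, none of them in an annotated exon, with matches to the motifs described below in capitals.
Il13ra1 (X, plus strand): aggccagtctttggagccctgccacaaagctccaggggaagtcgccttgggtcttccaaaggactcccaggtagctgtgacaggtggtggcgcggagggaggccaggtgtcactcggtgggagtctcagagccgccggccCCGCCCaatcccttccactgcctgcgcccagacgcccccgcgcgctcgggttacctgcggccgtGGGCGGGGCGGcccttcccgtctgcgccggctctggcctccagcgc
Tnfrsf1b (chromosome 4, minus strand): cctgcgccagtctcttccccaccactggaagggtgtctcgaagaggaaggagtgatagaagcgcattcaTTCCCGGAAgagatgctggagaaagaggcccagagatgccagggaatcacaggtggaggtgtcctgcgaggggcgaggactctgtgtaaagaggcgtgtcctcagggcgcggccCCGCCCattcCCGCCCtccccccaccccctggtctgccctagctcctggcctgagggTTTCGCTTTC
Ifngr2 (chromosome 16, plus strand): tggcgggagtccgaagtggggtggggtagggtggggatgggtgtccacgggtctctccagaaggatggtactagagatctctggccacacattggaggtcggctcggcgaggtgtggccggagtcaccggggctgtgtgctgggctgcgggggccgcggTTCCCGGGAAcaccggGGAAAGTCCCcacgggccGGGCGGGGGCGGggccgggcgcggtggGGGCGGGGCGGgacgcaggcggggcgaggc

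These stretches are chrX:36111858-36112107, chr4:145246871-145247120 and chr16:91546809-91547058. Both strands were searched for TTCNNNGAA (bound by STAT factors), TTC and GAA with 4 bases between them (STAT6), GAAA and GAAA with 2 bases between them (interferon response element), a pair of NF-kB consensus elements, AGGTCA and AGGTCA with 4 bases between them (liver X receptor), GAGGAAGT (PU.1) and GGGCGG (GC box). Of 32851 promoter windows of the same length, 8.30% held the STAT motif, 6.95% the STAT6 motif, 3.44% the interferon element, 0.155% and 0.0883% the NF-kB elements, 0.0152% the liver X receptor motif, 3.20% the PU.1 motif and 35.7% the GC box. The Il13ra1 window held 3 GC boxes, 2 of which share 1 base, and no other match. The Tnfrsf1b window held the STAT motif as TTCCCGGAA from 181 bases before the start, the interferon element as TTTCGCTTTC from 10 bases before it, and 2 GC boxes. The Ifngr2 window held the STAT6 motif as TTCCCGGGAA from 91 bases before the start, the more frequent NF-kB element on the opposite strand from 75 bases before it, and 4 GC boxes, 2 of which share 1 base. Ifnar2, Ifnar1 and Tnfrsf1a also held the STAT motif, that of Tnfrsf1a 244 bases before its RefSeq start. Ifngr1 and Il4ra held GC boxes only. A match describes these letters and is not a measured binding site. All 8 windows found had more G and C, from 57% in Ifnar2 and Tnfrsf1a to 74.3% in Ifngr2, than the median of 52.7% over all windows.

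The 3 tested protein coding genes most like Il13ra1 over the 4 libraries, by the distance of their log2 deviations from their own means, were Filip1l, Lhfpl2 and Cd300ld, out of 9438. Filip1l went from 3.33 and 3.41 to 1.67 and 1.79 FPKM, Lhfpl2 from 12.0 and 12.6 to 7.28 and 7.25 FPKM, and Cd300ld, a myeloid surface receptor gene, from 38.2 and 40.7 to 23.2 and 26.2 FPKM. Tnfrsf1b ranked 28 by the same distance. Over 2 libraries per group, this measure is mainly set by the size and direction of the group difference.

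Apart from Tnf, the ligand genes listed in the table were below the filter. Of 17 genes looked for as ligands or related cytokines, 5 were listed and 1 passed the filter. The genes looked for included Il24 and Il26, which are not listed. Their place among the mouse ligands of these receptors was not checked, so nothing is read from the number of absent genes. Tnf itself had 11.6 and 11.9 FPKM in control and 15.1 and 14.4 FPKM with 1,5-AG, higher in both 1,5-AG libraries, with a log2 fold change of 0.30 (SE 0.05, limma adjusted p = 0.0735). In this list 0 genes passed limma in the main fit, 1 had an unadjusted p under 0.05 and 0 were called by voom. Tnf did pass limma when the filter was raised to 5 FPKM (limma adjusted p = 0.0382). Of the others Il4 had 0.324 to 0.753 FPKM, Il10 0 to 0.101, Ifnk 0 to 0.0822 and Lta 0 to 0.191 FPKM. The genes of interleukin-13, interferon gamma and interferon beta are not listed in the table.

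Related receptor chains outside the 10 included 21 tested genes, of which 0 passed limma. Of these 15 were negative and 6 positive, with a median of -0.11. At an unadjusted p under 0.05, 7 were lower and 0 higher, and voom called 6 lower and 0 higher. Over all tested genes, limma called 0.647% lower and 0.809% higher. At that unadjusted p the shares over all genes were 9.04% lower and 9.15% higher, and voom called 4.64% lower and 3.65% higher. These shares stand behind the counts of the lists that follow as well. The most abundant were Csf1r, the receptor of the macrophage growth factor CSF1, at 258 and 258 FPKM in control against 237 and 240 FPKM with 1,5-AG (-0.11, limma adjusted p = 0.169), and Tgfbr2, a receptor of transforming growth factor beta, at 32.9 and 33.0 against 31.8 and 30.6 FPKM (-0.08, limma adjusted p = 0.411). In both, the 1,5-AG libraries were below the controls. Csf1r was among the 6 that voom called lower (voom adjusted p = 0.0215).

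Of 10 tested JAK and STAT genes, Irf9 included, 0 passed limma, with 9 negative, 1 positive and a median of -0.08; 2 of 10 were lower at an unadjusted p under 0.05 (9.04% over all genes), and voom called 1 of 10 lower (4.64%). Stat6, the factor used by interleukin-4 and interleukin-13, was the most abundant at 44.0 and 44.4 FPKM in control and 44.3 and 44.9 FPKM with 1,5-AG. The kinase genes had -0.04 for Jak1, -0.25 for Jak2, -0.01 for Jak3 and -0.16 for Tyk2. Jak2 had 6.92 and 7.69 FPKM in control and 5.77 and 6.18 FPKM with 1,5-AG (limma adjusted p = 0.177). It was the gene of this list that voom called lower (voom adjusted p = 0.0441). The factor genes had -0.17 for Stat2, -0.08 for Stat3, -0.11 for Stat5a, -0.02 for Stat5b and -0.09 for Irf9, a partner of STAT2. The signs of Jak3, Stat5b and Stat6 turned in some of the other settings. Of 16 tested inhibitors of JAK-STAT signalling 0 passed limma, 3 were lower at an unadjusted p under 0.05 (9.04% over all genes), and voom called 2 of the 15 it tested lower (4.64%). The phosphatase genes Ptpn6, at 115 and 112 FPKM in control and 115 and 113 FPKM with 1,5-AG, and Ptpn11 were the most abundant of them.

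Of 27 tested genes that act directly below the TNF receptors 0 passed limma, with a median of -0.03; 1 was lower at an unadjusted p under 0.05, and voom called 0. The most abundant were Otulin and Rbck1, which edit and build linear ubiquitin chains. Of 5 tested genes of receptor shedding and processing 1 rose and 0 fell (0.809% and 0.647% over all tested genes). The list also had 1 higher and 0 lower at an unadjusted limma p under 0.05 and with voom. The gene that rose was Adam10, a membrane protease that releases the outer part of many surface proteins. Its level went from 52.1 and 53.9 FPKM to 71.7 and 70.4 FPKM (log2 fold change 0.42, SE 0.04, limma adjusted p = 0.0248). Adam17, the protease best known for shedding TNF and both of its receptors, had 30.7 and 31.7 FPKM in control and 29.9 and 30.8 FPKM with 1,5-AG, and is named after its value was seen. Its groups overlapped.

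**Figure D4:**
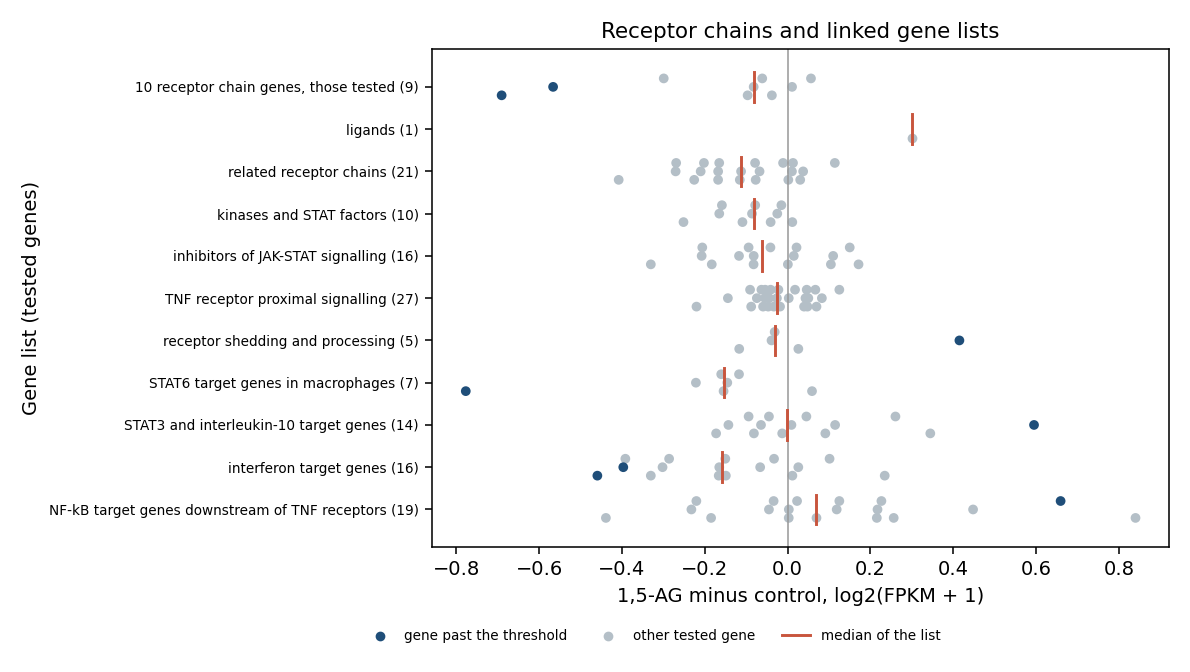
Difference between 1,5-AG and control on the log2(FPKM + 1) scale for the tested receptor chain genes (top row) and for tested genes of linked lists, with the number of genes in parentheses, a red line at each median and dark points past the threshold over all genes. The medians lie between -0.16 and 0.07, apart from the ligand row, which holds Tnf alone at 0.30.

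Target genes of these receptors moved in both directions. Of 7 tested STAT6 target genes 1 fell and 0 rose, with a median of -0.15; voom also called 1 lower and 0 higher. This was Klf4, a transcription factor gene of alternative activation, which went from 8.98 and 8.23 FPKM to 5.12 and 4.12 FPKM (-0.78, SE 0.10, limma adjusted p = 0.0460). Of the other 15 members, 9 were below the filter, each at no more than 0.767 FPKM in any library, and 6 are not listed in the table. Of 14 tested targets of STAT3 and interleukin-10, 1 rose and 0 fell, with a median of -0.0018. At an unadjusted limma p under 0.05 the list had 3 higher and 0 lower (9.15% and 9.04% over all genes). Voom called 1 higher and 0 lower (3.65% and 4.64%). The gene that passed limma was Ddit4, a stress-responsive inhibitor of mTORC1. Its level went from 3.64 and 3.41 to 5.54 and 6.15 FPKM (0.60, limma adjusted p = 0.0454).

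Of 16 tested interferon target genes 2 fell, Isg15 (-0.46) and Oas3 (-0.40), and 0 rose, with a median of -0.16; at an unadjusted p under 0.05 the list had 8 lower and 1 higher (9.04% and 9.15% over all genes). Voom tested 15 of these genes, Isg15 not among them, and called 5 lower and 1 higher (4.64% and 3.65% over all genes). Of 19 tested NF-kB target genes 1 rose, Ier3 (0.66, 25.6 and 27.1 to 39.9 and 44.5 FPKM), and 0 fell, with a median of 0.07; at an unadjusted p under 0.05 the list had 5 higher and 3 lower (9.15% and 9.04% over all genes), and voom called 4 higher and 2 lower (3.65% and 4.64%). The calls of Adam10, Klf4, Ddit4, Isg15, Oas3 and Ier3 were each lost when any 1 of the 4 libraries was left out, without the filter on low levels and without the variance trend. That of Klf4 was also lost under median-ratio scaling (limma adjusted p = 0.0534) and quantile normalization (limma adjusted p = 0.0549), within a range of 3.26e-05 to 0.168 over its alternatives.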

How the data were processed

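Messenger RNA was sequenced from 4 libraries of RAW264.7 cells, 2 per group, with groups and replicate numbers from the titles. The authors deposited FPKM, 1 column per library. Trimmomatic, HISAT2, Cufflinks and HTSeq with build mm10 are named, per the submitters' processing notes; no source used here gives versions, strand setting or annotation. Of 21523 identifiers 21508 matched GENCODE M21 (GRCm38, the same build) and 15 did not. For symbols on several rows the most abundant row was kept, so 8 rows were dropped.

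FPKM times merged exon length gave whole fragments, within 0.02, in all 4 libraries for 99.4% of genes. Library totals are those implied by the value of 1 fragment. Fragments gave the exact intervals and the voom alternative. Such intervals cover counting error only, since without molecular identifiers fragments may be copies of 1 molecule. At these depths 3 fragments in 2 kb of exon are 0.0924 to 0.103 FPKM.

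Groups were compared with limma 3.58.1 in R 4.3.3 (lmFit, eBayes with trend) on log2(FPKM + 1), group as the only term, for genes with a mean of at least 1 FPKM. Tests were two-sided, with Benjamini-Hochberg adjustment over all tested genes. The fold change understates that of weakly expressed genes. The fit was tested on simulated fragments. An exact permutation of 2 against 2 cannot give a two-sided p below 0.333. The receptor genes, the lists and the alternatives were chosen with earlier results of these data known. Named are the 10 receptor genes, tested ligands, JAKs and STATs, up to 3 called genes per direction and list, the 2 most abundant of a list with none called and of the related chains, and the genes most like Il13ra1 or nearest the chromosome 16 cluster. Others are marked as chosen after their values were seen. Protein sequences were not used here. A gene of the signalling and interferon target lists and a marker gene are not reported here and were left out of these lists.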

Additional observations from a re-analysis of the deposited data

How the results depend on the processing

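Over all genes, 162 passed limma's threshold. Without a filter this count was 0 (2628 at an unadjusted p under 0.05). With voom on recovered fragments, which kept the filter, it was 917. It was 360 at a mean of at least 5 FPKM, 5 without the variance trend and 2 to 10 with 1 library left out. Of the 9 tested receptor genes 2 passed, and this became 0 without a filter, 0 without the variance trend and 0 in each fit with 1 library left out, with 3 at an unadjusted p under 0.05 in each of these fits. It was 3 with the filter at 5 FPKM and with voom. Il13ra1 ran from -0.74 to -0.64, Tnfrsf1b from -0.63 to -0.50 and Tnfrsf1a from -0.37 to -0.23 over the 13 alternatives, all lower. Deviations of same-numbered libraries correlated at 0.0124, and the labels do not say what a number shares. The replicate block gave 310 genes over all and the same 2 receptor genes.

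Some values changed sign. Under quantile normalization these were Jak3 (0.0152), Stat6 (-0.0147) and Ptpn6 (-0.0338). With 1 library left out the sign changed in 7 genes: Il10ra (-0.166 to 0.0432), Il10rb (-0.096 to 0.1175), Ifnar1 (-0.0868 to 0.011), Jak3 (-0.065 to 0.035), Stat5b (-0.0681 to 0.0184), Ptpn6 (-0.0175 to 0.0188) and the pseudogene H3f3a-ps2 (-0.2336 to 0.0598). The remaining values of named genes kept direction and side of the threshold in 416 cases, lost it in 68 and gained it in 5. Partner ratios from fragments per kb were the same by construction, as the fragments came from FPKM and exon length. They are therefore no check on these ratios. In fits without 1 library the lone replicate of its group is taken to vary as the other group does. Some settings also change the number of genes or libraries. Why values and calls differed between settings was not tested.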
